A study of Mus musculus with 6 samples.

Results

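The transcripts of heat shock factor 1 (HSF1), its relatives and the proteins that regulate it were measured in natural killer (NK) cells of mouse spleen. The set holds 9 genes, taken by symbol from the 55291 gene rows of the deposited count table: the heat shock factors Hsf1, Hsf2 and Hsf4, the HSF1-binding protein gene Hsbp1, the kinase genes Gsk3a, Gsk3b and Mapk3, the ubiquitin ligase gene Fbxw7 and the deacetylase gene Sirt1. All 9 had a row, and all 9 passed the filter on low counts. The 6 libraries come from 3 wild-type mice (WT 1, 2 and 3) and 3 mice whose HSF1 carries alanine in place of serines 303 and 307 (S303/7A 5, 6 and 7), all kept at steady state. Spleen cells were enriched on DX5 beads and NK cells were sorted as CD49b-positive and CD3e-negative, and RNA was taken from 300000 to 500000 cells of each mouse. The labels give neither age, sex nor strain, and do not say how the mutation was introduced or whether the mice are littermates.

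HSF1 waits in an inactive form bound by chaperones, and on proteotoxic stress forms trimers that bind heat shock elements and switch on chaperone genes. Serine 307 is phosphorylated by ERK kinases, of which Mapk3 encodes ERK1, and this primes serine 303 for glycogen synthase kinase 3, encoded by Gsk3a and Gsk3b. The doubly phosphorylated stretch restrains HSF1, promotes attachment of SUMO at a nearby lysine and is recognised by FBXW7, which targets HSF1 for degradation. The alanine form cannot be phosphorylated at either place. All of these are controls on the protein, while the libraries measure transcripts.

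The coding sequence around the mutated residues is shown because the genotypes are defined by it. It was read from the GENCODE transcripts of Hsf1 on the mouse build GRCm38 and covers codons 298 to 312, at chr15:76498453-76498497 on the plus strand, in exon 9. Capitals mark codons 303 and 307 of the reference, and codon 298, at the left end, is that of the lysine that carries SUMO.
Hsf1 codons 298 to 312: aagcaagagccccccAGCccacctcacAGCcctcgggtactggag
Both marked codons are AGC, a serine codon, at positions 76498468 to 76498470 and 76498480 to 76498482. Of 7 protein-coding Hsf1 transcripts in the annotation, 5 reach these codons, and all 5 hold the same 45 bases. The altered codons of the S303/7A allele are in no source used here, and a gene count cannot show them, so the transcript level of Hsf1 does not check the genotype labels.

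The WT libraries held 53845572 to 72736406 counts and the S303/7A libraries 43189163 to 47248039. Levels are given as CPM, the count scaled to a common library total, after TMM scaling, which corrects for differences in library composition. NK cell markers summed to 24072 to 27809 CPM in WT mice and 25410 to 26311 CPM in S303/7A mice, a sum in which single markers went opposite ways. Klrb1c, which encodes NK1.1, was at 2256 to 2663 CPM in WT mice and 1640 to 1755 CPM in S303/7A mice (adjusted p 0.0454, edgeR's quasi-likelihood test), and Klrk1, which encodes NKG2D, at 1357 to 1483 and 1848 to 2276 CPM (adjusted p 0.0700). Eomes differed widely between replicates. It was at 476, 316 and 148 CPM in WT mice and 180, 140 and 717 CPM in S303/7A mice. The first principal component of all genes tested, which held 28.4% of the variance, divided WT from S303/7A, and the second, with 24.1%, set WT 1 and S303/7A 7 apart from WT 3 and S303/7A 6. The number of counts behind a member in 1 library ran from 137 (Hsf2 in S303/7A 6, exact Poisson 95% interval 115 to 162, counting error only) to 8392 (Hsbp1 in WT 3).

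Every S303/7A library had less Hsf1, and more Gsk3b and Fbxw7, than each of the WT libraries, but no member passed the test. The other 6 members overlapped between the genotypes. Of the 9 members 0 were called at an adjusted p under 0.05 in edgeR's quasi-likelihood test, against 0.364% of the 16480 genes tested. An unadjusted p under 0.05 was reached by 3 members, against 9.68% of genes, and the same 3 did not overlap, against 16.0% of genes (1 lower, against 8.37% of genes, and 2 higher, against 7.64%). DESeq2 called 1 member, Gsk3b, against 2.63% of genes, and limma-voom called 0. The median log2 fold of the 9 members, S303/7A over WT, was 0.12, against 0.009 for all genes tested.

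**Figure D1:**
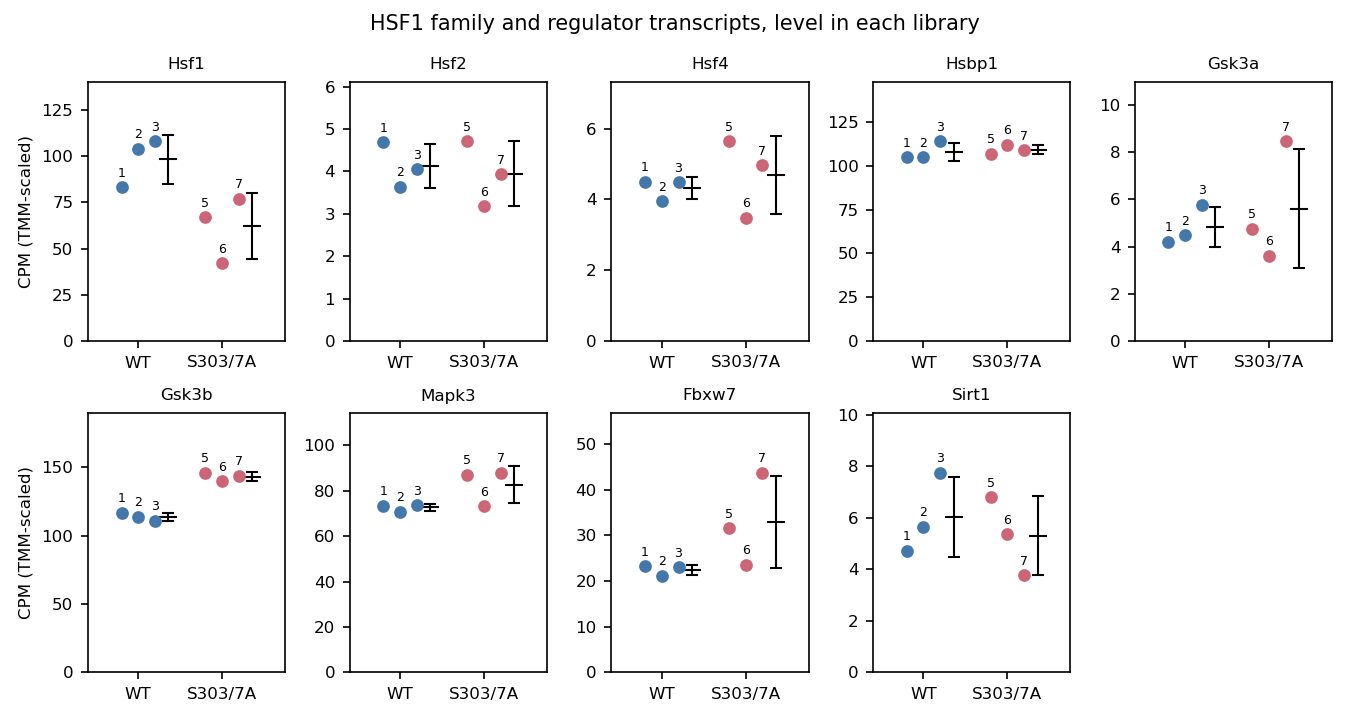
Level of each of the 9 members in every library, in TMM-scaled CPM on a linear axis from 0. Points are libraries marked by replicate number, and the bar beside them is the mean ± SD over 3 libraries. The 3 S303/7A points lie below all WT points for Hsf1 (42.2 to 76.9 against 83.2 to 108) and above them for Gsk3b (140 to 146 against 111 to 117).

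Hsf1, the master regulator of the heat shock response (chromosome 15, 76477422 to 76501913, plus strand), was at 83.2, 104 and 108 CPM in libraries WT 1, 2 and 3 and at 67.0, 42.2 and 76.9 CPM in libraries S303/7A 5, 6 and 7. The groups did not overlap, although only 6.29 CPM separated the highest S303/7A library from the lowest WT library. S303/7A 6 lay well below the other S303/7A libraries. The log2 fold was -0.67 ± 0.22 (SE), a level of 0.630 times that of WT, with an unadjusted p of 0.0182 and an adjusted p, by edgeR's quasi-likelihood test, of 0.386. In DESeq2 the adjusted p was 0.0533. Leaving out each library in turn kept the log2 fold between -0.85 (without S303/7A 7) and -0.45 (without S303/7A 6). The spread of Hsf1 within genotypes, an SD of 0.35 in log2 CPM, was larger than that of 94.0% of the 5781 genes with a mean log2 CPM of at least 5, where the median was 0.12.

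The marker lists of basophils and of platelets, which also carry CD49b, were lower in the S303/7A libraries as well. The 7 basophil markers summed to 257, 555 and 357 CPM in libraries WT 1, 2 and 3 and to 202, 169 and 241 CPM in libraries S303/7A 5, 6 and 7. All 7 had a log2 fold below 0, and 4 were lower in every S303/7A library, against 8.37% of all genes. Ms4a2 was called (log2 fold -0.86 ± 0.12, SE, adjusted p 0.0470, edgeR's quasi-likelihood test), 1 of the 7 against 0.364% of all genes. The 7 platelet and megakaryocyte markers summed to 207 to 223 CPM in WT mice and 94.7 to 135 CPM in S303/7A mice, with S303/7A 6 lowest, as it was for Hsf1. Of these markers 6 were tested, and all 6 were lower in every S303/7A library, with 0 called. Of the 6 neutrophil markers only Cxcr2 was above 2.32 CPM in any library, at 41.4 to 51.8 CPM in WT mice and 20.8 to 28.5 CPM in S303/7A mice, while S100a8, S100a9 and Ngp were highest in S303/7A 6. The 7 T cell markers summed to 129 to 175 CPM in WT mice and 180 to 206 CPM in S303/7A mice. Single markers in this sum went opposite ways, with 6 log2 folds above 0 and 1 below. Trbc2, the largest part of the sum, was higher in every S303/7A library (log2 fold 0.39 ± 0.08, SE). Trac was lower in every S303/7A library (-0.51 ± 0.19). No marker of these lists was at 0 in every library, though the neutrophil marker Ly6g had at most 0.0233 CPM in any of them. Their part in the levels of Hsf1, Gsk3b and Fbxw7 was not tested, and in sorted bulk cells fewer cells of a type and less RNA per cell cannot be told apart.

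Hsf1 starts 145 bases from Bop1, a ribosome biogenesis gene transcribed in the opposite direction, and the exons of the pair do not overlap in the annotation. Bop1 was at 115, 132 and 120 CPM in WT mice and at 145, 133 and 127 CPM in S303/7A mice, so its groups overlapped and its log2 fold of 0.15 ± 0.09 (SE) had the opposite sign to that of Hsf1. By edgeR's quasi-likelihood test its adjusted p was 0.671. The difference between the folds of the neighbours was not tested.

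Hsf2 (chromosome 10, 57486385 to 57513135), which can form mixed trimers with HSF1, was at 4.69, 3.64 and 4.05 CPM in WT mice and 4.71, 3.18 and 3.94 CPM in S303/7A mice. The libraries of both genotypes were interleaved. Its log2 fold was -0.07 ± 0.24 (SE).

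Hsf4 (chromosome 8, 105269801 to 105275845), best known for its role in the lens, was at 4.50, 3.95 and 4.49 CPM in WT mice and 5.64, 3.48 and 4.97 CPM in S303/7A mice. S303/7A 6 held the lowest value of all libraries and S303/7A 5 the highest. Its log2 fold was 0.12 ± 0.24 (SE), and the adjusted p values of Hsf2 and Hsf4 were 0.969 and 0.935 in edgeR's quasi-likelihood test. S303/7A 6 was thus the lowest library for all 3 heat shock factor genes.

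Hsbp1 (chromosome 8, 119344488 to 119348922) encodes a small coiled-coil protein that binds the trimerisation domain of active HSF1 and dampens it. It was at 105, 105 and 114 CPM in WT mice and 107, 112 and 109 CPM in S303/7A mice, with complete overlap. The log2 fold was 0.01 ± 0.07 (SE) (adjusted p 0.977, edgeR's quasi-likelihood test). Its within-genotype SD was 0.05 in log2 CPM, and 7.01% of the 5781 genes with a mean log2 CPM of at least 5 had a smaller one.

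The remaining genes of the family were close to silent. Hsf3 had 12 counts over the 6 libraries, Hsf5 had 44, Hsfy2 had 13 and Hsbp1l1 had 3, and none of these passed the filter. In the list of 8 heat shock factor and HSF1-binding protein genes, 4 were therefore tested, 0 were called by edgeR's test, 1 had an unadjusted p under 0.05, and the median log2 fold was -0.03.

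Levels of different genes were compared per length, as CPM per kilobase of annotated exons. In WT the order was Hsbp1 (58.1 ± 2.78, SD, n = 3), Mapk3 (32.2 ± 0.711), Hsf1 (13.9 ± 1.88), Gsk3b (11.6 ± 0.346), Fbxw7 (3.19 ± 0.152), Hsf4 (2.46 ± 0.179), Gsk3a (1.66 ± 0.292), Sirt1 (1.13 ± 0.291) and Hsf2 (0.430 ± 0.0552). The neighbours Hsf1 and Gsk3b overlapped, as did Gsk3a and Sirt1. In S303/7A, Gsk3b (14.6 ± 0.325) stood above Hsf1 (8.74 ± 2.51) without overlap. Hsf1, in turn, overlapped Fbxw7 there (4.68 ± 1.43). The annotated exons of Hsf1 include retained introns and add up to 7099 bases. Over the longest coding transcript, of 2104 bases, Hsf1 came to 46.8 ± 6.34 CPM per kilobase in WT and 29.5 ± 8.49 in S303/7A, which put it next below Hsbp1 in WT and next below Mapk3 in S303/7A, above Gsk3b in both. In WT it overlapped Mapk3 on this length (39.5 to 51.3 against 39.3 to 40.9). Hsf2, last on annotated exons, stood above Sirt1 on the longest coding transcript, with overlap (1.59 ± 0.204 against 1.36 ± 0.350 in WT, 1.51 ± 0.295 against 1.20 ± 0.344 in S303/7A). The place of Hsf1 relative to Mapk3 and Gsk3b, and of Hsf2 relative to Sirt1, thus depended on the length used.

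The kinases of serine 303 differed from each other in level and in spread. Gsk3b, which encodes the beta form of glycogen synthase kinase 3 (chromosome 16, 38089001 to 38246084), was at 117, 114 and 111 CPM in WT mice and 146, 140 and 144 CPM in S303/7A mice. The groups were well apart and each was narrow, with a within-genotype SD of 0.04 in log2 CPM. Of the 5781 genes with a mean log2 CPM of at least 5, 2.04% had a smaller one. The log2 fold was 0.33 ± 0.06 (SE), a 1.25-fold higher level, with an unadjusted p of 0.00137 that ranked 166th among the genes tested. The adjusted p was 0.135 in edgeR's quasi-likelihood test, 0.130 in limma-voom and 0.00382 in DESeq2. Leaving out any 1 library left the log2 fold between 0.30 and 0.34.

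Gsk3a, which encodes the alpha form (chromosome 7, 25228258 to 25237851), was at 4.20, 4.47 and 5.78 CPM in WT mice and 4.76, 3.62 and 8.46 CPM in S303/7A mice. S303/7A 7 was the highest and S303/7A 6 the lowest of all 6 libraries. Gsk3a had a log2 fold of 0.22 ± 0.34 (SE) (adjusted p 0.914, edgeR's quasi-likelihood test). The antisense gene 9130221H12Rik covers 28.3% of the annotated exon bases of Gsk3a, and no source used here states the strand setting of the counting, so reads of this stretch may be missing from, or mixed into, the Gsk3a count. That gene was at 1.45 to 2.37 CPM in WT mice and 1.51 to 1.91 CPM in S303/7A mice.

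Mapk3, which encodes ERK1 (chromosome 7, 126759601 to 126765819), was at 73.4, 70.7 and 73.6 CPM in WT mice and 86.9, 73.1 and 87.8 CPM in S303/7A mice. S303/7A 5 and 7 lay above WT, and S303/7A 6 lay within it. Mapk3 had a log2 fold of 0.19 ± 0.09 (SE) (adjusted p 0.606, edgeR's quasi-likelihood test). Without S303/7A 6 it was 0.27 with an adjusted p of 0.378.

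Fbxw7, the substrate-binding subunit of the SCF ubiquitin ligase that recognises phosphorylated HSF1 (chromosome 3, 84815268 to 84979198), was at 23.2, 21.2 and 23.0 CPM in WT mice and 31.6, 23.6 and 43.7 CPM in S303/7A mice. WT was narrow and S303/7A wide, and the lowest S303/7A library exceeded the highest WT library by 0.43 CPM. The log2 fold was 0.55 ± 0.22 (SE), a 1.47-fold higher level (adjusted p 0.483, edgeR's quasi-likelihood test). S303/7A 7 weighed most on this value, which was 0.29 without that library.

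Sirt1, a deacetylase of the DNA-binding domain that prolongs HSF1 binding to its sites (chromosome 10, 63319005 to 63381704), was at 4.72, 5.66 and 7.75 CPM in WT mice and 6.81, 5.36 and 3.77 CPM in S303/7A mice. The genotypes overlapped, with the highest library in WT and the lowest in S303/7A. Sirt1 had a log2 fold of -0.19 ± 0.29 (SE) (adjusted p 0.915, edgeR's quasi-likelihood test). The antisense gene Gm16145, which covers 1.22% of its exon bases, had no count in any library.

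**Figure D2:**
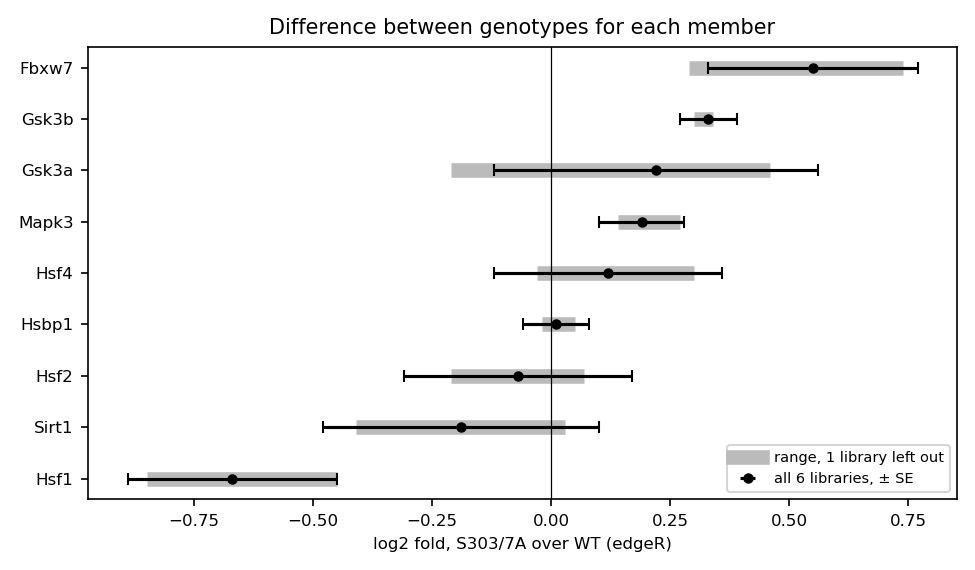
Log2 fold of S303/7A over WT for each member from edgeR's quasi-likelihood fit, with bars of 1 SE, and in grey the range of the same value when each library was left out in turn. The grey ranges of Hsf1 (-0.85 to -0.45), Fbxw7 (0.29 to 0.74), Gsk3b (0.30 to 0.34) and Mapk3 (0.14 to 0.27) stay on one side of 0, and those of the other 5 members cross it.

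The ratio of 2 transcripts within a library does not depend on how libraries are scaled, and such ratios were tested between genotypes with a 2-sided exact permutation test, of which 3 are given here and the p-values are adjusted over the 4 tested. With 3 libraries against 3 this test cannot give a p below 0.1. The ratio of Hsf1 to Hsbp1, per exon base, was 0.207, 0.259 and 0.248 in WT and 0.164, 0.0989 and 0.185 in S303/7A. These groups did not overlap, with a log2 difference of -0.72 ± 0.29 (SE) and an exact p of 0.1, the smallest possible (0.4 adjusted). The ratio of Hsf1 to Hsf2 was 24.0, 38.7 and 36.1 in WT and 19.2, 18.0 and 26.4 in S303/7A, a log2 difference of -0.62 ± 0.27 (SE). S303/7A 7 lay above WT 1, so the groups overlapped, and the exact p was 0.2 (0.4 adjusted).

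The kinase ratio did not separate the genotypes. Gsk3a to Gsk3b was 0.121, 0.132 and 0.177 in WT and 0.111, 0.0879 and 0.199 in S303/7A (log2 difference -0.18 ± 0.39, SE, exact p 0.7, 0.9 adjusted). S303/7A 7 was the highest and S303/7A 6 the lowest of the 6 libraries for this ratio, the same libraries as for Gsk3a alone.

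**Figure D3:**
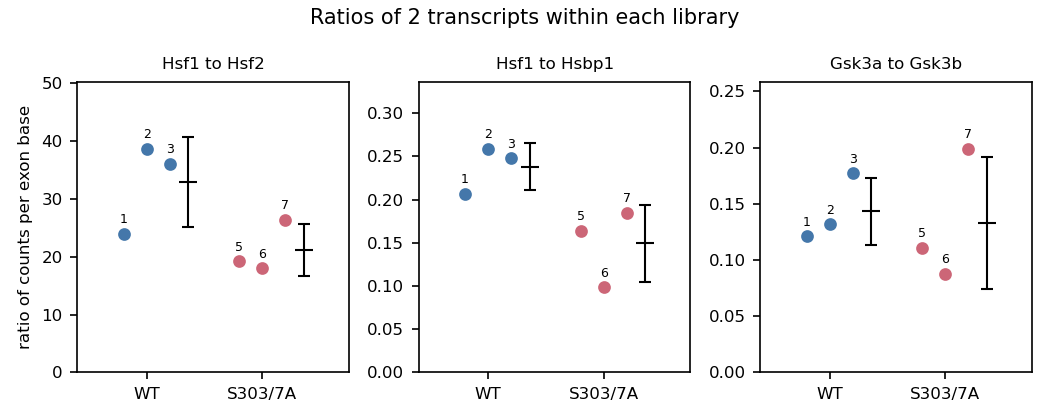
Ratio of the counts per exon base of 2 genes in each library, on linear axes from 0, with the mean ± SD over 3 libraries beside the points. Only for Hsf1 to Hsbp1 do the S303/7A points (0.0989 to 0.185) all lie below the WT points (0.207 to 0.259).

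Hsf1 was set against the 5781 genes with a mean log2 CPM of at least 5 to find those with the most similar course over the 6 libraries. The highest Pearson correlations of log2 CPM were those of N4bp1 (0.986), Exosc10 (0.985), Ccdc91 (0.972), Arrdc1 (0.971) and Akap8l (0.971). Over 6 libraries of 2 genotypes, in which every WT library was also deeper than every S303/7A library, values this high are a description of these libraries only. N4bp1 went from 44.8 to 57.2 CPM in WT mice to 28.3 to 40.8 CPM in S303/7A mice, with S303/7A 6 lowest. Among the members, the correlation with Hsf1 ranged from -0.74 for Gsk3b to 0.40 for Hsf2.

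The wider HSF1 pathway was described with 9 lists of 146 distinct genes, of which 138 were tested. By edgeR's quasi-likelihood test 0 of the 138 were called, 14 (10.1%) had an unadjusted p under 0.05 and 16 (11.6%) did not overlap between genotypes, close to or below the 9.68% and 16.0% of all genes. DESeq2 called 6 of them (4.35%, against 2.63% of all genes): Gsk3b, Spry2, Hsp90ab1, Hspa1a, Hspa1b and Hspe1. For each list, called refers to edgeR's test unless DESeq2 is named. The shares of all genes given here are those to read the counts of each list against.

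In the ERK list, 20 of 22 genes were tested and 0 called, 1 had an unadjusted p under 0.05, and the median log2 fold was 0.09. That gene was Spry2, a feedback inhibitor of the pathway, at 71.2, 68.3 and 71.0 CPM in WT mice and 89.3, 105 and 95.4 CPM in S303/7A mice. Its groups were well apart, with a log2 fold of 0.46 ± 0.08 (SE) and an adjusted p, by edgeR's quasi-likelihood test, of 0.114. Dusp5, an ERK phosphatase gene, was at 15.3 to 20.6 CPM in 5 libraries and at 95.3 CPM in S303/7A 7, so its log2 fold of 1.25 rested on that library. Araf, a kinase at the top of the cascade, had a log2 fold of -0.13, and the scaffold gene Ksr1 one of 0.67, which was 0.31 without S303/7A 7.

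In the GSK3 list all 14 genes were tested and 0 called, 2 had an unadjusted p under 0.05 (Gsk3b and Akt2), 11 folds were above 0, and the median log2 fold was 0.14. Akt2, a kinase that inhibits both forms of GSK3, was at 183, 180 and 194 CPM in WT mice and 192, 292 and 260 CPM in S303/7A mice. S303/7A 5 lay within WT and the other S303/7A libraries above it. Sgk1 (0.50) and Sgk3 (-0.21), kinases related to AKT, had log2 folds of opposite sign, and both overlapped.

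Of 21 other kinases and phosphatases of HSF1 0 were called, 0 reached an unadjusted p under 0.05 and they had a median log2 fold of 0.09. The smallest p were those of the mitotic kinase gene Plk1 (log2 fold 0.45 ± 0.24, SE), the phosphatase gene Ppp2ca (0.45 ± 0.25) and the casein kinase 2 genes Csnk2a1 (0.28 ± 0.16) and Csnk2b (0.14 ± 0.09). Leaving out S303/7A 7 took Ppp2ca to 0.11, and leaving out S303/7A 6 took Plk1 to 0.30 and Csnk2a1 to 0.13.

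Of the 9 tested genes for ubiquitin ligases and a deubiquitinase that act on HSF1, 0 were called and the median log2 fold was -0.03. Fbxw7 stood alone at the upper end of this list. The ring subunit Rbx1 (log2 fold -0.12 ± 0.10, SE) and the adaptor Skp1a (0.03 ± 0.07), which join FBXW7 in its SCF complex, overlapped between genotypes. So did the ligase genes Stub1 (-0.13 ± 0.08) and Nedd4 (-0.11 ± 0.13).

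The SUMO list had 15 tested genes with 0 called, 0 at an unadjusted p under 0.05 and a median log2 fold of 0.01. The log2 fold was 0.21 for the SUMO protease gene Senp7, -0.12 for the SUMO ligase gene Pias3 and 0.06 for Sumo3.

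The acetylation list had 15 tested genes with 0 called and a median log2 fold of 0.04. Ep300, the acetyltransferase that stabilises and modifies HSF1, was at 127, 132 and 141 CPM in WT mice and 156, 148 and 149 CPM in S303/7A mice, without overlap. Its log2 fold was 0.17 ± 0.07 (SE), with an unadjusted p of 0.0413 and an adjusted p, by edgeR's quasi-likelihood test, of 0.494. Ccar2, which encodes an inhibitor of SIRT1, had a log2 fold of -0.09 ± 0.08 and overlapped, as did Kat2b (0.24) and Hdac6 (0.15).

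Among 26 binding partners and co-regulators 0 were called, 4 had an unadjusted p under 0.05 (1 higher, 3 lower) and the median log2 fold was 0.04. The cytosolic HSP90 genes, whose products hold HSF1 inactive, were both below WT on average: Hsp90ab1 at 1093 to 1219 CPM in WT mice and 927 to 1012 CPM in S303/7A mice (log2 fold -0.28 ± 0.06, SE), and Hsp90aa1 at 86.5 to 126 and 78.5 to 89.4 CPM (-0.38 ± 0.14), the latter with overlap. Chd4, a chromatin remodeller, was at 180 to 188 CPM in WT mice and 144 to 167 CPM in S303/7A mice, and Cdyl, a chromodomain gene, at 5.83 to 7.69 and 9.56 to 10.1 CPM. Their adjusted p values ranged from 0.214 to 0.454 in edgeR's quasi-likelihood test.

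The list of HSF1 targets held 20 tested genes with 0 called by edgeR and 4 by DESeq2 (Hspa1a, Hspa1b, Hsp90ab1 and Hspe1), against 2.63% of all genes in DESeq2. In edgeR's fit 11 of the 20 log2 folds were above 0 and 9 below, and the median was 0.02. Hsph1 (0.33), Dnajb1 (0.16) and Hspd1 (0.03) were among those above 0. An unadjusted p under 0.05 was reached by 6 of the 20, against 9.68% of all genes, all 6 lower in S303/7A. Hsp90ab1 and Hsp90aa1 were among these 6 and were also counted among the binding partners. Hspe1, the mitochondrial co-chaperonin, was at 28.7, 26.9 and 28.9 CPM in WT mice and 22.6, 21.6 and 19.1 CPM in S303/7A mice, with a log2 fold of -0.42 ± 0.12 (SE) and an adjusted p of 0.312 by edgeR's quasi-likelihood test and 0.0470 by DESeq2. Its groups did not overlap. Hspa1b, a stress-inducible HSP70 gene that shares most of its sequence with Hspa1a, was at 13.0, 89.3 and 10.9 CPM in WT mice and 1.82 to 3.02 CPM in S303/7A mice. Its log2 fold was -4.03 ± 0.88 (SE) and fell in size to -2.38 without WT 2. Over all libraries its adjusted p was 0.181 by edgeR's quasi-likelihood test, 0.00188 by DESeq2 and 0.497 by limma-voom. WT 2, the highest library for it, was also the highest for a list of 8 immediate early genes, which summed to 835 CPM there and to 469 to 505 CPM in the other 5 libraries, and was not the highest for Hsf1. Single genes departed from the sum: Egr1 was highest in WT 1 (55.4 CPM, against 49.7 CPM in WT 2) and Atf3 in S303/7A 7 (1.35 CPM). Among these 8 genes 7 log2 folds were below 0 and 1 above, with 0 called, against 0.364% of all genes. Fos (8.16, 29.4 and 6.95 CPM in WT mice, 4.95 to 5.47 CPM in S303/7A mice) and Jun (46.8, 189 and 38.1 against 17.7 to 34.2 CPM) were lower in every S303/7A library, 2 of the 8 against 8.37% of all genes. The rest overlapped. The part of the state of WT 2, or of the difference in Fos and Jun, in the Hspa1b result was not tested.

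**Figure D4:**
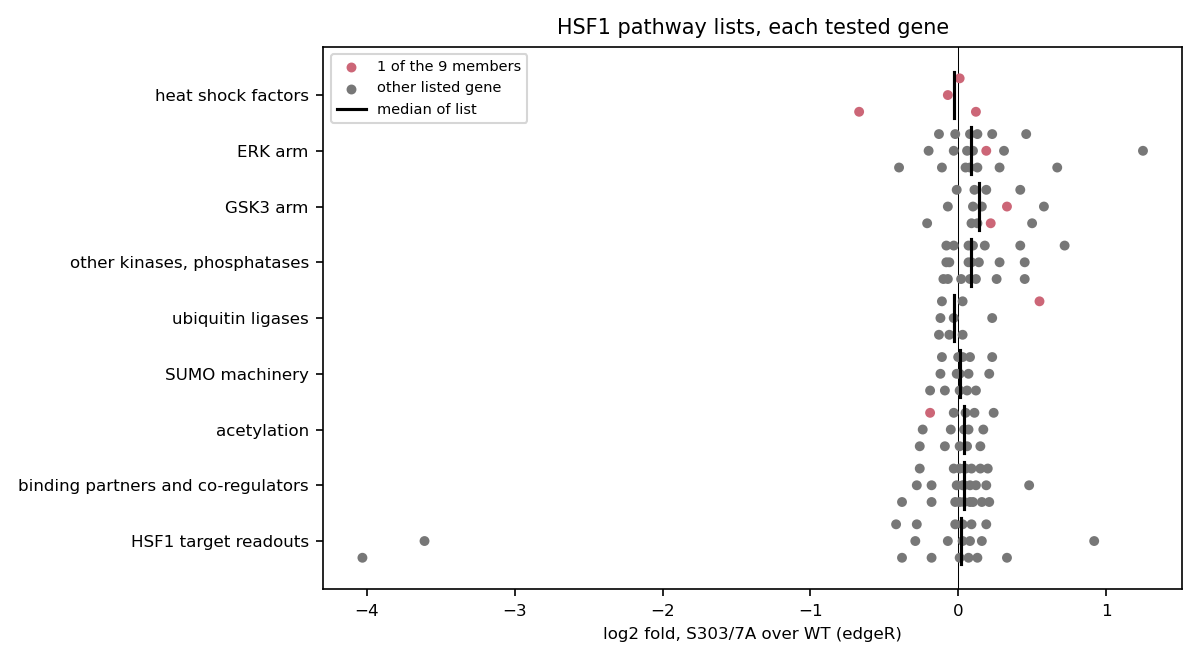
Log2 fold of S303/7A over WT for each tested gene of the 9 pathway lists, with the 9 members in red, other genes in grey and the median of each list as a black line. The medians lie between -0.03 and 0.14. The points far to the left in the list of targets are Hspa1b (-4.03) and Hspa1a (-3.61), both called in DESeq2 but not in edgeR or limma-voom. Without WT 2 their log2 folds were -2.38 and -1.49.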

How the data were processed

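Per the labels' protocols, 1 mouse gave 1 library and the SMART-seq HT kit was used. The submitters' processing notes name build GRCm38 (mm10) and the tools Trimmomatic, STAR, featureCounts and DESeq2. No source used here states versions, annotation release or strand setting. The authors deposited raw counts per gene symbol, which were tested here, and a normalized signal table. Dividing the deposited counts by this signal gave 1 size factor per library, from 0.817 to 1.40, and multiplying back gave whole counts (within 0.01) for 100% of values, so it holds the same reads and a count test on them is the same test, calling 60 genes.

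In R 4.3.3, edgeR 4.0.16 tested S303/7A against WT by the quasi-likelihood test after filterByExpr (minimum count 10, total 15) and TMM, with no covariate, and Benjamini-Hochberg adjustment over 16480 genes at a threshold of 0.05. "Called" means past it. An SE is the absolute log2 fold over the square root of F. DESeq2 1.42.0, limma-voom (limma 3.58.1), other scalings, no filter, thinning to the smallest total and leaving out each library were alternatives. The fit was tested on simulated counts, with the changed genes drawn from those with a mean count above 50. It recovered 8 of 50 genes changed 1.5-fold, 21 of 50 changed 2-fold, 43 of 50 changed 4-fold and 46 of 50 changed 8-fold, with 13 false calls. Of the true log2 folds, 90.5% lay within 2 SE. No pair of replicates agreed within sampling noise (chi-square per gene from 29.5 to 92.7).

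Positions and exon lengths are from GENCODE mouse release 21 on GRCm38. A BLAST 2.17.0 search of the members' longest coding transcripts found no stretch of 200 or more bases at 95% identity in transcripts of other genes, apart from the antisense overlap of Gsk3a.

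The members and lists were chosen with earlier results of these data known. The text names all 9 members, called genes and up to 4 of the smallest p per list, the 5 genes most like Hsf1 (log2 CPM with prior count 2, leaving out predicted loci and pseudogenes), and genes that overlap a member's exons or start within 1000 bases of Hsf1. Some genes this rule names, and 1 of the 4 ratios, are not reported here. Others were chosen after their values were seen.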

Additional observations from a re-analysis of the deposited data

How the results depend on the processing

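Of 108 member values under 12 alternatives, 97 kept their direction and their side of the threshold. Gsk3b passed only in DESeq2 (log2 fold 0.33, adjusted p 0.00382), which made the count of members called 1 there and 0 in each other setting, a count chosen after seeing the data. The sign of Hsbp1 turned with library totals (-0.01). When 1 library was left out, signs turned for Hsbp1 (-0.02 to 0.05), Hsf2 (-0.21 to 0.07), Hsf4 (-0.03 to 0.30), Gsk3a (-0.21 to 0.46) and Sirt1 (-0.41 to 0.03), 5 members whose log2 fold over all libraries was smaller than its SE, and for the log2 ratio difference of Gsk3a to Gsk3b (-0.52 to 0.07). Over all genes, 60 were called, against 434 in DESeq2, 38 in limma-voom, 171 without the filter and 5 (without WT 2) to 57 (without S303/7A 6) with 1 library left out. List medians moved by more than the spread between replicates for SUMO genes (-0.02 with library totals, -0.02 to 0.03 with 1 library left out), ubiquitin ligases (-0.12 to 0.02) and the ERK arm (both with 1 library left out, -0.01 to 0.25). The cause of these shifts was not tested. No paired analysis was possible because the genotypes share no replicate number.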

Other observations

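The balance of Gsk3b to Hsf1, picked after the values were seen and given without a test, was 1.41, 1.10 and 1.02 Gsk3b counts per Hsf1 count in the 3 WT libraries, against 2.18, 3.30 and 1.87 for S303/7A 5, 6 and 7. Gsk3b and Hsf1 lie on different chromosomes, and the ratio does not depend on library scaling. Because Gsk3b was higher and Hsf1 lower in every S303/7A library, the ratio had to separate the genotypes.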
